A study of Mus musculus with 384 samples.

Results

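The genes of 10 cell-surface receptors were followed across single dopamine (DA) neurons of the mouse midbrain. They were the κ- and μ-opioid receptors *Oprk1* and *Oprm1*, the neurotensin receptors *Ntsr1* and *Ntsr2*, *Gpr83*, the gastrin-releasing peptide (GRP) receptor *Grpr*, the prokineticin receptor *Prokr2*, the relaxin-3 receptor *Rxfp3*, the somatostatin receptor *Sstr2*, and the prolactin receptor *Prlr*. They were taken by name, with no cutoff on a measured value, although earlier results of these data were known, and they make up 10 of the 41266 genes with a value in the deposited counts. Each gene was read in the 209 of 384 cells that had at least 500000 reads counted on genes. Cells with 10 or more reads of a gene are written as positive for it (+), all others as negative (-). Levels are given as counts per 1000000 reads on genes (CPM), and the replicate was the mouse (n = 8), because cells of a mouse share their source.

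Apart from *Prlr*, all these receptors are G protein-coupled, with a membrane-spanning bundle that passes a peptide signal to a G protein inside the cell. Those that couple to Gi, such as the opioid and somatostatin receptors, commonly open potassium channels and quiet a neuron, whereas those that couple to Gq, such as the neurotensin, GRP and prokineticin receptors, commonly excite it. *Prlr* is a cytokine receptor that signals through the kinase JAK2 and STAT transcription factors. In the midbrain, neurotensin is known to excite DA neurons, and agonists of the κ-opioid receptor act directly on them.

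The cells came from 8 DAT-IRES-Cre;Ai9 mice on C57BL6/J, in which the locus of *Slc6a3*, the dopamine transporter gene, drives Cre and Cre in turn turns on the red fluorescent reporter tdTomato. By the sample labels, 3 mice were female (25, 33 and 36 days old) and 5 were male (24 to 28 days old). No mouse had any treatment. The label reports past as well as present Cre activity, and the dissected block included the hypothalamus, so tdTomato alone does not make a cell a midbrain DA neuron. Each mouse gave 12 to 45 retained cells from 1 Fluidigm C1 run, with 500672 to 1544810 reads per cell. Of the 209 cells, 205 were positive for *Slc6a3*, 206 for *Ddc*, 205 for *Slc18a2* and 198 for *Th*, all of which a DA neuron needs to make, load or recover dopamine. *En1* was counted in 85.2% of cells and *Pitx3*, another transcription factor of midbrain DA neurons, in 15.3%. *Gja1*, *Slc1a3* or *Mbp*, taken as glial markers, reached 500 CPM in 7 cells, while *Slc1a2*, another astrocyte marker, was positive in 183; *Mog*, *C1qa*, *Cldn5* and *Slc17a7* were at 0 reads in every cell, and 15 cells were positive for *Six6*, a hypothalamic marker.

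The receptors were read against 4 genes that mark kinds of DA neuron. *Neurod6*, a transcription factor gene of the basic helix-loop-helix (bHLH) class, was positive in 49 cells. *Grp*, which encodes the peptide that *Grpr* binds, was positive in 77, and 43 cells had both. *Aldh1a7*, an aldehyde dehydrogenase gene, was positive in 74 cells. Cells under 500 CPM of *Th*, the rate-limiting enzyme of dopamine synthesis, were called *Th*-poor (23 cells), and all *Aldh1a7*+ and all *Neurod6*+ cells were *Th*-rich. The comparisons by *Neurod6* and *Grp* share cells, so they are not separate evidence.

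bHLH factors bind the E-box, CANNTG, whose pattern is the same on both strands. *Gpr83*, *Ntsr1* and *Oprk1* were positive in 45, 48 and 45 of the 49 *Neurod6*+ cells. For the first 2 of these, which had a RefSeq window, the E-boxes in the 250 bases before their RefSeq starts (GRCm38.p6) are shown, with 12 bases on either side and the E-box in capitals. The *Gpr83* sites lie 222 and 87 bases before the start, at chr9:14859976-14860005 and chr9:14860111-14860140, and the *Ntsr1* site 208 bases before it, at chr2:180499756-180499785, all read on the plus strand. The *Gpr83* model in the annotation begins upstream of the start used here, so both *Gpr83* sites lie inside its outer bounds.
*Gpr83* far site: taagggtgcttgCACCTGtctgctggcttg
*Gpr83* near site: aggggagcggggCAGCTGgagcggagcgcg
*Ntsr1* site: ctcatcctagccCAGGTGgtccccgggagc
Such a match is common. A CANNTG was present in 66.2% of 32851 windows of that length before RefSeq starts, at a mean of 1.16 per window, and CAGCTG in 13.0%. Windows were matched by symbol for 9 of the 10 receptors, all but *Oprk1*. Those of *Ntsr2* (4), *Prokr2* (3), *Grpr* (2) and *Prlr* (1, 3 and 0 in 3 windows) also held E-boxes, and those of *Oprm1*, *Rxfp3* and *Sstr2* held none of these letters. These are descriptions of letters, and binding was not measured.

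The 10 receptors fell into a widely detected group of 4 genes and a group of 6 genes found in few cells. *Oprk1* was positive in 180 of 209 cells (86.1%, exact 95% confidence interval 80.7–90.5), *Ntsr1* in 162 (77.5%, 71.2–83.0), *Gpr83* in 93 (44.5%, 37.6–51.5) and *Prlr* in 70 (33.5%, 27.1–40.3). *Sstr2* followed with 20 cells (9.57%, 5.94–14.4), *Rxfp3* with 12 (5.74%, 3.00–9.81), *Grpr* with 10 (4.78%, 2.32–8.62) and *Oprm1* with 8 (3.83%, 1.67–7.40). *Ntsr2* was positive in 3 cells and *Prokr2* in 2. These intervals treat the cells of all mice as 1 sample, so they cover counting error only and not the spread between mice.

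The number of *Prlr*+ cells moved with the cutoff. From 1 read *Prlr* was present in 144 cells and from 50 reads in 38. *Gpr83* went from 120 to 68 cells, *Oprk1* from 198 to 153 and *Ntsr1* from 176 to 138. Many *Prlr*+ cells therefore lay close to the cutoff, with a median of 68.5 CPM among them against 201 for *Oprk1*, 170 for *Gpr83* and 161 for *Ntsr1*. When every cell was thinned to 500000 reads, *Prlr* was positive in 57 cells, *Oprk1* in 177, *Ntsr1* in 157 and *Gpr83* in 88. In cells below the median depth of 780466 reads, *Ntsr1* was positive in 69.2%, and in deeper cells in 85.7%.

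*Oprk1*, the κ-opioid receptor gene (chr1:5588450-5606134, plus strand), was read at 118 CPM in the lowest mouse, 211 in the median and 344 in the highest (222 ± 69.2, mean ± SD, n = 8). *Ntsr1* (chr2:180499976-180544979, plus strand), the main neuronal receptor of neurotensin, was at 62.1, 127 and 233 CPM (146 ± 61.4). Both were positive in cells of every mouse, *Oprk1* in 75.0% to 100% of a mouse's cells and *Ntsr1* in 38.9% to 97.8%.

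*Gpr83* (chr9:14859880-14870789, plus strand), a receptor for the peptide PEN cut from the *Pcsk1n* product, varied more between mice. It was at 274, 213, 24.1, 41.8, 74.6, 23.5, 233 and 197 CPM in mice 1 to 8 (135 ± 104), with mice 1, 2, 7 and 8 all well above mice 3, 4, 5 and 6. By the sample labels, mice 3, 4 and 5 were captured on large C1 chips and mice 1, 2, 6, 7 and 8 on medium ones. The part of the chip was not tested. *Prlr* (chr15:10177238-10349190, plus strand) was at 151, 42.7, 7.46, 23.5, 50.8, 4.88, 55.5 and 91.3 CPM in the same mice (53.4 ± 48.5). Mouse 1 was highest and mouse 6 lowest for both genes.

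*Sstr2* (chr11:113619327-113626028, plus strand), a Gi-coupled receptor of somatostatin, ran from 0 CPM in mouse 3 through a median of 7.07 to 54.8 in mouse 4. *Rxfp3* (chr15:11033717-11037968, minus strand) ran from 0 through 6.27 to 86.9 CPM, again highest in mouse 4. *Grpr* (chrX:163513904-163549736, minus strand) reached 19.3 CPM and *Oprm1* (chr10:6758593-7038209, plus strand) 18.1 CPM, both in mouse 8. Their median mice were at 6.01 and 0.355 CPM. *Prokr2* (chr2:132369705-132385502, minus strand) had 15.2 CPM in mouse 4 and a median of 0, and *Ntsr2* (chr12:16653443-16660236, plus strand), the low-affinity neurotensin receptor better known from astrocytes, at most 3.28. The 3 *Ntsr2*+ cells had no reads of the astrocyte markers *Slc1a3*, *Aqp4*, *Gfap* and *Aldh1l1*. In the cell of mouse 5 *Gja1* was at 1.74 CPM, and *Slc1a2* was at 1946, 90.3 and 259 CPM in the cells of mice 5, 8 and 1. Gene models on the other strand overlap *Oprm1* and *Sstr2*, and 1 on the same strand overlaps *Prlr*, so reads there could not always be told apart.

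**Figure D1:**
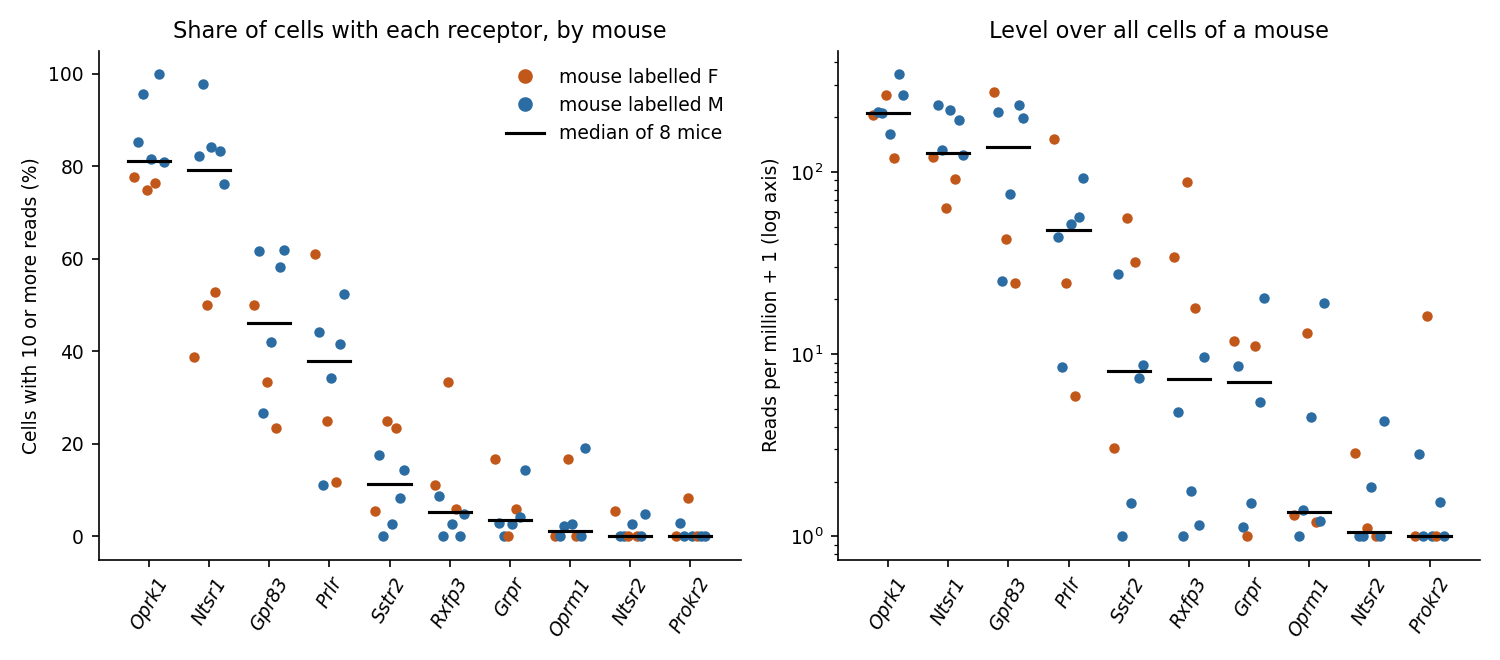
Left, the percent of retained cells with 10 or more reads of each receptor; right, the level in CPM plus 1 on a log axis, with all cells of a mouse summed. Each point is 1 of 8 mice (orange, labelled F; blue, labelled M) and the black line the median mouse; *Oprk1* and *Ntsr1* are at 62.1 CPM or more in every mouse, whereas *Sstr2*, *Rxfp3*, *Grpr*, *Oprm1*, *Ntsr2* and *Prokr2* are at 0 in at least 1.

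Levels of different genes can be set side by side only per length of transcript. In CPM per kilobase of exon, the median mouse had 44.2 for *Oprk1*, 37.8 for *Gpr83*, 32.4 for *Ntsr1*, 3.56 for *Prlr*, 3.30 for *Sstr2*, 2.38 for *Grpr*, 1.47 for *Rxfp3*, 0.0524 for *Oprm1*, 0.0386 for *Ntsr2* and 0 for *Prokr2*. In this order only *Ntsr1* exceeded its next neighbour, *Prlr*, in 8 of 8 mice. *Oprk1* exceeded *Gpr83* in 6 of 8 and *Gpr83* exceeded *Ntsr1* in 3 of 8, so the leading 3 genes did not separate beyond the spread between mice. *Prlr* was below *Gpr83* already before length was counted, at 46.7 against 136 CPM in the median mouse. Its longer transcript (13.12 against 3.586 kb of exon) widened this gap per kilobase, although the share of positive cells differed much less.

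Most cells carried several receptors. Of the 10, a cell was positive for a median of 2 in *Neurod6*- cells and of 4 in *Neurod6*+ cells, where 42 of 49 cells had 3 or more. Over all cells, 8 had none, 14 had 1, 80 had 2, 60 had 3, 34 had 4, 8 had 5 and 5 had 6. Among the 4 widely detected genes the usual set was *Oprk1* with *Ntsr1* alone (74 cells), followed by *Oprk1*, *Ntsr1* and *Gpr83* (34 cells) and by all 4 (33 cells, of which 22 were *Neurod6*+). *Oprk1* and *Ntsr1* were found together in 152 cells, which are 84.4% of the *Oprk1*+ and 93.8% of the *Ntsr1*+ cells. *Gpr83* and *Prlr* were found together in 50 cells, 53.8% of the *Gpr83*+ and 71.4% of the *Prlr*+ cells. In 14 cells *Oprk1*, *Gpr83* and *Prlr* were present without *Ntsr1*, and none of those was *Neurod6*+.

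In *Neurod6*+ cells *Gpr83* was counted in 45 of 49 cells (91.8%), against 48 of 160 *Neurod6*- cells (30.0%), and *Ntsr1* in 48 of 49 (98.0%) against 114 of 160 (71.3%). With cells thinned to 500000 reads, these shares were 87.8% and 28.1% for *Gpr83* and 98.0% and 68.1% for *Ntsr1*. *Gpr83* in *Neurod6*+ cells was at 107 CPM in the lowest mouse, 356 in the median and 781 in the highest of 6 mice, against 6.88, 77.4 and 162 in *Neurod6*- cells of the same mice. It was higher in the *Neurod6*+ cells of 6 of 6 mice, and the ranges overlapped because mouse 3 had 107 CPM in its *Neurod6*+ cells while mice 1 and 2 had 162 and 156 in their *Neurod6*- cells. The log2 fold change was 2.32 (standard error, SE, 0.65; adjusted p = 0.388, edgeR quasi-likelihood test, Benjamini-Hochberg over 12605 genes). The study itself picked *Gpr83* out on these cells, so this direction is not independent evidence for it.

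*Oprk1* was positive in 91.8% of *Neurod6*+ and 84.4% of *Neurod6*- cells. It was at 262, 305 and 469 CPM (lowest, median and highest mouse) in *Neurod6*+ cells and 138, 179 and 400 in *Neurod6*- cells. Its level was higher in 5 of 6 mice, with a log2 fold change of 0.72 (SE 0.27, adjusted p = 0.692, edgeR). *Ntsr1* was at 144, 192 and 334 CPM against 55.6, 152 and 223, higher in 4 of 6 mice (log2 fold change 0.47, SE 0.32, adjusted p = 0.945, edgeR). *Sstr2* went the other way, at 0, 0 and 1.45 CPM against 0, 6.83 and 37.7, and was lower in the *Neurod6*+ cells of 5 of 6 mice, mouse 3 having 0 in both (log2 fold change -4.42, SE 1.57, adjusted p = 0.625, edgeR). *Prlr* overlapped almost entirely, at 17.9, 49.7 and 132 CPM against 5.30, 60.3 and 155. Its share was 46.9% of *Neurod6*+ and 29.4% of *Neurod6*- cells, or 34.7% and 25.0% after thinning.

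Of the 5 receptors with enough reads to test by *Neurod6*, 0 passed an adjusted p of 0.05 in edgeR, beside 0.0555% of all genes tested. At an unadjusted p under 0.05 there were 3 (6.20% of all genes), and DESeq2 called 1 (1.01% of all genes), *Gpr83* (log2 fold change 2.35, adjusted p = 0.0112). *Grpr*, *Rxfp3*, *Oprm1*, *Ntsr2* and *Prokr2* had too few reads to enter the test. Summed astrocyte markers were at 551 to 1021 CPM (median 680.1) in *Neurod6*+ cells against 195 to 796 (median 339) in *Neurod6*- cells, nearly all of it *Slc1a2*, with *Gfap*, *Aqp4* and *Slc1a3* at 0 reads in the *Neurod6*+ cells of these 6 mice. GABA neuron markers summed to 2.47 to 333 CPM (median 51.6) against 27.8 to 1694 (median 381), and hypothalamic markers to 0 to 80.4 (median 0.695) against 0.846 to 201 (median 21.3). Without the cells with glial markers the log2 fold change of *Gpr83* was 2.22 (adjusted p = 0.436, edgeR), and without the 15 *Six6*+ cells 2.95 (SE 0.63, adjusted p = 0.191, edgeR), both sets left out after the values had been seen. The part of *Slc1a2* and of the GABA neuron markers was not tested.

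*Grp*+ cells as a whole lay between these levels. *Gpr83* was positive in 51 of 77 *Grp*+ cells (66.2%) and in 42 of 132 *Grp*- cells (31.8%), at 23.2, 254 and 445 CPM in the lowest, median and highest of 7 mice against 19.1, 41.0 and 194. It was higher in the *Grp*+ cells of 6 of 7 mice, with overlapping ranges (log2 fold change 1.72, SE 0.63, adjusted p = 0.772, edgeR). *Grpr*, the receptor for *Grp* itself, was positive in 6 of 77 *Grp*+ cells (7.79%) and 4 of 132 *Grp*- cells (3.03%). It was at 0, 14.4 and 26.5 CPM against 0, 0.150 and 18.6 and higher in 5 of 7 mice (log2 fold change 2.01, SE 1.40, adjusted p = 0.980, edgeR). All 10 *Grpr*+ cells were also positive for *Slc17a6*, the vesicular glutamate transporter VGLUT2, as were 113 of all 209 cells (54.1%) and all 3 *Ntsr2*+ and both *Prokr2*+ cells. *Prlr* was at 5.67, 28.2 and 88.6 CPM against 4.17, 64.1 and 180 (log2 fold change -0.93, SE 0.71, adjusted p = 0.994, edgeR), and without the 15 *Six6*+ cells, left out after the values had been seen, this became 0.18. The 3 *Ntsr2*+ cells were all *Grp*+, and 0 of 132 *Grp*- cells were positive, which allows a share of up to 2.27%. By *Grp*, 0 of 6 receptors tested passed in edgeR, beside 0.00799% of all genes tested, 1 had an unadjusted p under 0.05 (5.90% of all genes) and DESeq2 called 0 (0.407% of all genes). Summed astrocyte markers were at 408 to 781 CPM (median 555) in *Grp*+ and 94.4 to 916 (median 251) in *Grp*- cells. Oligodendrocyte markers were at 9.94 to 63.5 against 16.5 to 1144 CPM, and hypothalamic markers at 0 to 48.8 against 0.899 to 240. The part of these markers in the results was not tested.

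The *Grp*+ cells divided by *Neurod6*. Without *Neurod6*, *Gpr83* was positive in 10 of 34 *Grp*+ cells (29.4%), close to the 30.2% of cells with neither gene, and with *Neurod6* in 41 of 43 (95.3%). Against cells with neither gene, the *Grp*+/*Neurod6*- cells had *Gpr83* at 0.850, 51.0 and 230 CPM in the lowest, median and highest of 6 mice against 7.78, 32.4 and 115, higher in 3 of 6. *Oprk1* was at 74.2, 157 and 194 CPM against 116, 183 and 482 and lower in 5 of 6 mice (log2 fold change -0.56, SE 0.34, adjusted p = 1.00, edgeR). Of 5 receptors tested, 0 passed in edgeR, beside 0.00848% of all genes tested, with 0 at an unadjusted p under 0.05 (4.00% of all genes) and 0 called by DESeq2 (0.305%).

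Within *Grp*+ cells, those with *Neurod6* had higher *Oprk1* in 5 of 5 mice, and the ranges did not overlap. Mice 2, 3, 5, 7 and 8 had 248, 488, 227, 268 and 335 CPM of *Oprk1* in *Grp*+/*Neurod6*+ cells and 175, 74.2, 139, 194 and 175 in *Grp*+/*Neurod6*- cells. The log2 fold change was 1.06 (SE 0.31, adjusted p = 1.00, edgeR). It was 0.65 without mouse 3, 0.43 in cells with at least 750000 reads and 0.05 with the classes set from 50 reads. *Gpr83* was at 372, 106, 396, 469 and 296 CPM in the *Grp*+/*Neurod6*+ cells of the same mice and 230, 0.850, 17.4, 103 and 84.7 in the *Grp*+/*Neurod6*- cells. It too was higher in 5 of 5 mice, and here mouse 3 of the one class lay below mouse 2 of the other (log2 fold change 1.90, SE 0.84, adjusted p = 1.00, edgeR). Of 4 receptors tested, 0 passed in edgeR, beside 0.00910% of all genes tested. There were 2 at an unadjusted p under 0.05 (4.00% of all genes), and DESeq2 called 0 (0.273%). Summed astrocyte markers were at 551 to 1127 CPM in *Grp*+/*Neurod6*+ cells and 367 to 528 in *Grp*+/*Neurod6*- cells. GABA neuron markers were at 1.53 to 333 CPM (median 5.50) against 2.48 to 2479 (median 196). The part of these markers in the results was not tested.

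**Figure D2:**
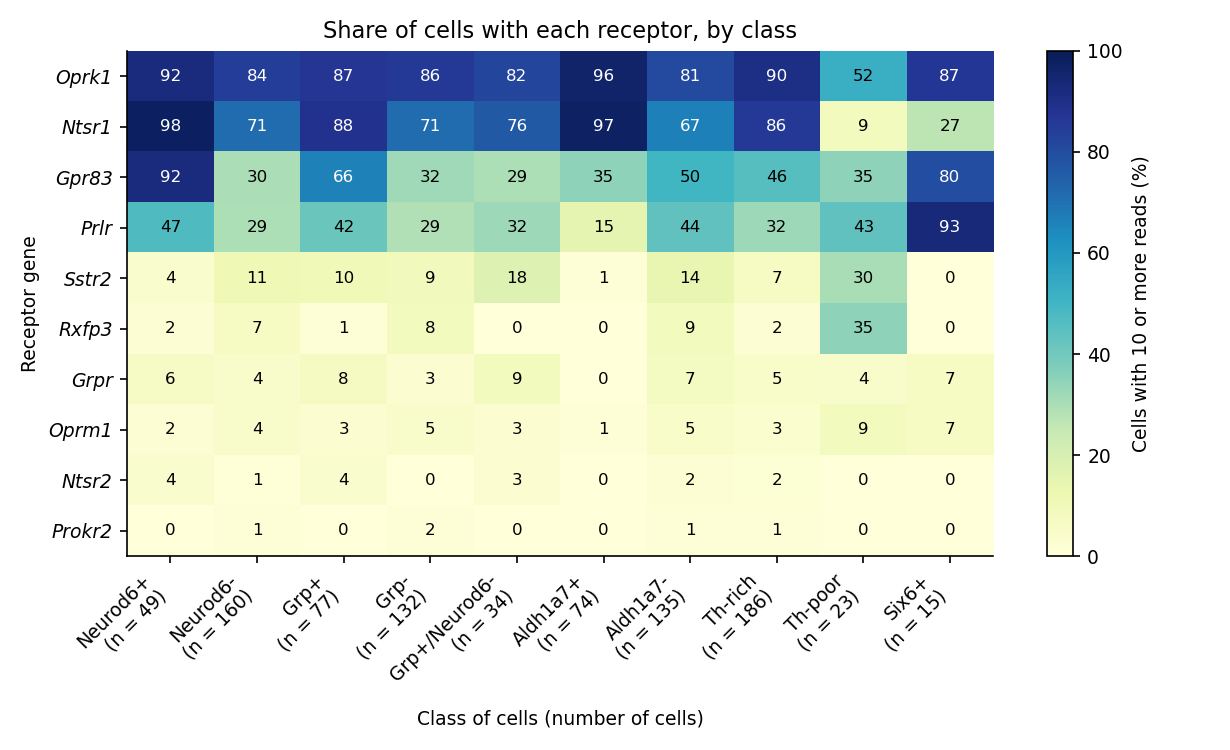
Percent of cells with 10 or more reads of each receptor (rows) in each class of cells (columns, with the number of cells), cells of all mice pooled. *Gpr83* is at 92 in *Neurod6*+ cells and 29 in *Grp*+/*Neurod6*- cells, *Ntsr1* at 9 in *Th*-poor cells, *Rxfp3* at 35 in *Th*-poor cells and 0 in *Aldh1a7*+ cells, and *Prlr* at 93 in the 15 *Six6*+ cells.

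Of the 74 *Aldh1a7*+ cells, 42 had *Oprk1* and *Ntsr1* without *Gpr83* or *Prlr*. *Oprk1* was positive in 71 of 74 *Aldh1a7*+ cells (95.9%) and 109 of 135 *Aldh1a7*- cells (80.7%), and *Ntsr1* in 72 of 74 (97.3%) and 90 of 135 (66.7%), the latter share higher in 7 of 7 mice. Their levels did not follow these shares. *Oprk1* was at 72.7, 183 and 395 CPM in the lowest, median and highest mouse against 111, 214 and 348 and lower in 5 of 7, and *Ntsr1* at 104, 162 and 237 against 18.3, 136 and 235 and higher in 4 of 7. No order is read from these shares.

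*Sstr2* was seldom counted in *Aldh1a7*+ cells. It was positive in 1 of 74 against 19 of 135 cells (1.35% and 14.1%), and at 0, 0 and 1.11 CPM in the lowest, median and highest of 7 mice against 0, 10.8 and 79.0. It was lower in the *Aldh1a7*+ cells of 6 of 7 mice, and mouse 3 had 0 reads in both classes. The log2 fold change was -6.48 (SE 1.48, adjusted p = 0.0773, edgeR over 12781 genes). Without mouse 3 it was -6.42 with an adjusted p of 0.0357, and with DESeq2 -6.64 with an adjusted p of 0.00394. The other refits that could test it gave -3.82 to -6.85 with adjusted p up to 0.579, the highest with at least 5 cells per class. *Sstr2* had too few reads to enter the test among *Th*-rich cells alone, in cells with at least 750000 reads, in thinned cells and without mouse 2. All 23 *Th*-poor cells, 7 of which were *Sstr2*+, were *Aldh1a7*-.

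*Prlr* was positive in 11 of 74 *Aldh1a7*+ cells (14.9%) and 59 of 135 *Aldh1a7*- cells (43.7%), or 12.2% and 35.6% after thinning. By mouse it was at 8.00, 4.43, 1.54, 2.22, 7.61, 20.8 and 107 CPM in the *Aldh1a7*+ cells of mice 2 to 8 and 60.5, 12.1, 33.2, 95.5, 3.91, 64.8 and 84.6 in their *Aldh1a7*- cells. It was lower in 5 of 7 mice, with mice 6 and 8 the other way and the ranges overlapping (log2 fold change -1.07, SE 0.85, adjusted p = 0.708, edgeR). Without the *Six6*+ cells the shares were 13.7% and 38.0%.

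*Rxfp3* had 0 reads in the 74 *Aldh1a7*+ cells, which allows a share of positive cells of up to 4.05%, and 1293 reads in the *Aldh1a7*- cells of the same mice, most of them in mouse 4. As *Rxfp3* was positive in 12 of 135 *Aldh1a7*- cells (8.89%), and reads were amplified by PCR without molecular identifiers, no fold is given. *Grpr* was positive in 0 of 74 against 10 of 135 cells. *Prokr2* had 0 reads in the *Aldh1a7*+ cells and was positive in 2 of 135 *Aldh1a7*- cells (1.48%), a difference that is not detectable at this number of cells. *Oprm1*, the target of morphine, was positive in 1 of 74 and 7 of 135 cells. *Gpr83* was positive in 35.1% and 49.6% of cells, at 0, 16.6 and 443 CPM against 30.1, 129 and 247, and lower in 6 of 7 mice, although the fitted log2 difference was 0.02. Of 5 receptors tested by *Aldh1a7*, 0 passed in edgeR, beside 0.407% of all genes tested, with 1 at an unadjusted p under 0.05 (11.0% of all genes) and 1 called by DESeq2 (2.64%). Summed oligodendrocyte markers were at 0 to 48.6 CPM in *Aldh1a7*+ cells and 27.9 to 2356 in *Aldh1a7*- cells. GABA neuron markers were at 0.787 to 255 against 2.20 to 1331 CPM, and their part in these results was not tested. Without the cells with glial markers the log2 fold change of *Sstr2* was -6.49 (adjusted p = 0.0822, edgeR). *Slc6a3* rose by 1.27 on the log2 scale in *Aldh1a7*+ cells (SE 0.24, adjusted p = 0.0334, edgeR).

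**Figure D3:**
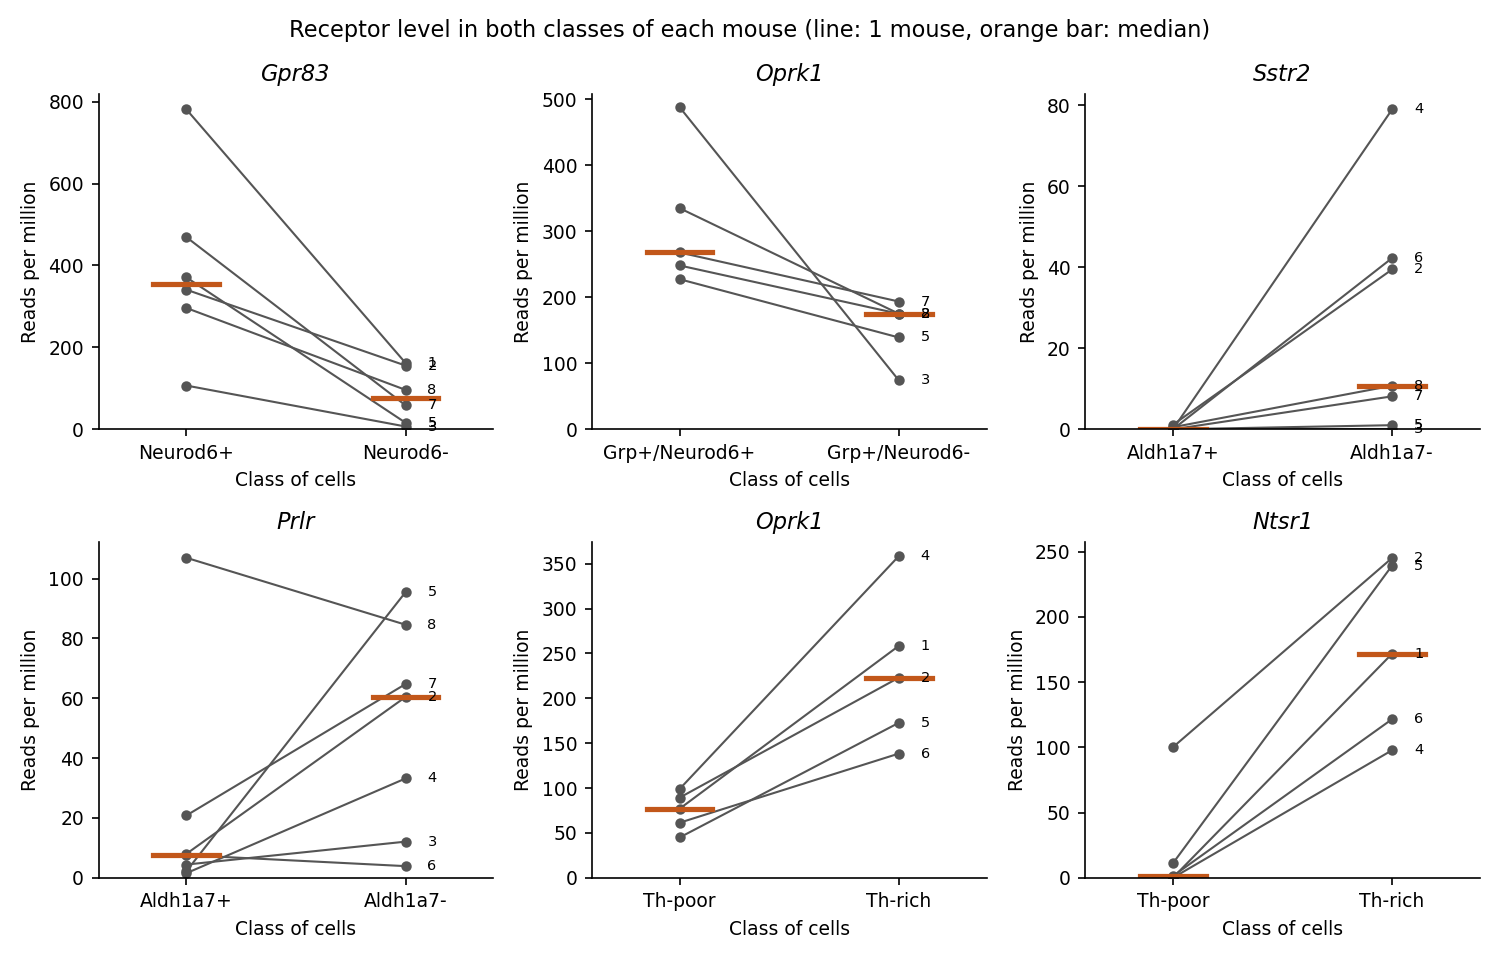
Level in CPM of a receptor in both classes of cells of each mouse; a line joins the classes of 1 mouse, whose number stands at the right, and the orange bar is the median. *Gpr83* is higher on the *Neurod6*+ side in 6 of 6 mice and *Oprk1* on the *Grp*+/*Neurod6*+ side in 5 of 5. *Sstr2* is at or near 0 in every *Aldh1a7*+ group, and *Prlr* is lower there in 5 of 7 mice. In *Th*-poor cells *Oprk1* and *Ntsr1* are lower in 5 of 5 mice.

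*Ntsr1* was positive in 2 of 23 *Th*-poor cells (8.70%) and 160 of 186 *Th*-rich cells (86.0%), and *Oprk1* in 12 of 23 (52.2%) and 168 of 186 (90.3%). *Rxfp3* was positive in 8 of 23 (34.8%) and 4 of 186 (2.15%), and *Sstr2* in 7 of 23 (30.4%) and 13 of 186 (6.99%). Thinned to 500000 reads, the shares were 8.70% and 83.3% for *Ntsr1*, 47.8% and 89.2% for *Oprk1*, 30.4% and 2.15% for *Rxfp3*, and 30.4% and 5.91% for *Sstr2*. The class was small, with 3 to 6 *Th*-poor cells in each of the 5 mice compared. It also held 5 of the 7 cells with glial markers at 500 CPM or more, and *Gja1* was positive in 17.4% of *Th*-poor and 0.538% of *Th*-rich cells. *Mbp* was positive in 56.5% of *Th*-poor and 23.1% of *Th*-rich cells. Summed oligodendrocyte markers were at 6.04 to 117 CPM (median 41.3) in *Th*-poor and 14.3 to 57.2 (median 20.9) in *Th*-rich cells. Summed astrocyte markers were at 127 to 1941 CPM (median 146) in *Th*-poor and 265 to 517.6 (median 310.0) in *Th*-rich cells. *Slc1a2*, positive in 82.6% of *Th*-poor and 88.2% of *Th*-rich cells, fell by 1.45 on the log2 scale in *Th*-poor cells (SE 0.27, adjusted p = 0.0389, edgeR), and did not pass with the mouse as block (adjusted p = 0.187). Its part in these results was not tested.

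In mice 1, 2, 4, 5 and 6, *Oprk1* was at 77.0, 89.3, 99.0, 45.0 and 61.4 CPM in *Th*-poor cells and 259, 223, 359, 173 and 138 in *Th*-rich cells. It was lower in 5 of 5 mice, without overlap, and the log2 fold change was -1.55 (SE 0.37, adjusted p = 0.113, edgeR over 11132 genes). With the *Th* limit at 2000 CPM it was -1.49 with an adjusted p of 0.0209, and with DESeq2 -1.46 with an adjusted p of 0.0122. *Ntsr1* was at 0, 100, 0, 11.1 and 1.32 CPM in *Th*-poor cells and 172, 245, 97.8, 239 and 122 in *Th*-rich cells, and lower in 5 of 5 mice. Mouse 2 stood apart among the *Th*-poor values and its 100 CPM overlapped the *Th*-rich range (log2 fold change -2.73, SE 1.37, adjusted p = 0.587, edgeR). Without the cells with glial markers, which left 4 mice, it was -5.63 for *Ntsr1* (adjusted p = 0.0736, edgeR) and -1.47 for *Oprk1* (adjusted p = 0.263, edgeR).

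*Sstr2* was at 6.41, 197, 130, 4.03 and 103 CPM in the *Th*-poor cells of these mice and 0.113, 11.1, 11.9, 0.173 and 6.04 in *Th*-rich cells. It was higher in 5 of 5 mice, although the *Th*-poor values of mice 1 and 5 lay within the *Th*-rich range (log2 fold change 4.01, SE 1.38, adjusted p = 0.354 by edgeR and 0.0155 by DESeq2). In mice 1, 2 and 5 a single *Th*-poor cell was *Sstr2*+, at 29.8, 763 and 21.7 CPM. *Rxfp3* was at 32.8, 5.79, 238, 8.39 and 65.4 CPM in *Th*-poor cells and 33.5, 3.66, 0, 0 and 0 in *Th*-rich cells. It was higher in 4 of 5 mice, the exception being mouse 1, in which a single *Th*-rich cell carried the reads (log2 fold change 3.28, SE 1.81, adjusted p = 0.632, edgeR). *Gpr83* was at 24.8 to 89.0 CPM against 14.6 to 357 and lower in 3 of 5 mice, with a log2 fold change of -1.26 (SE 0.80). *Prlr* was at 3.71 to 289 against 5.29 to 202 CPM.

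By *Th*, 0 of 6 receptors tested passed in edgeR, beside 0.485% of all genes tested. At an unadjusted p under 0.05 there were 2 (9.24% of all genes), and DESeq2, which called 3.38% of all genes, called both of these, *Oprk1* and *Sstr2*. The median of all genes was shifted by 0.11 on the log2 scale in this comparison, and by 0.20 with size factors of the DESeq2 type. Without *Th*, which set the classes, the DA neuron markers summed to 1128 to 3350 CPM in *Th*-poor cells against 6616 to 10021 in *Th*-rich cells. Among them *Slc6a3* fell by 2.98 (SE 0.27, adjusted p = 0.000197, edgeR) and *Slc18a2* by 2.08 (SE 0.25, adjusted p = 0.00313, edgeR) on the log2 scale. *Slc17a6* with *Slc17a7* summed to 164 to 1484 against 96.0 to 169, *Slc17a7* being at 0.

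**Figure D4:**
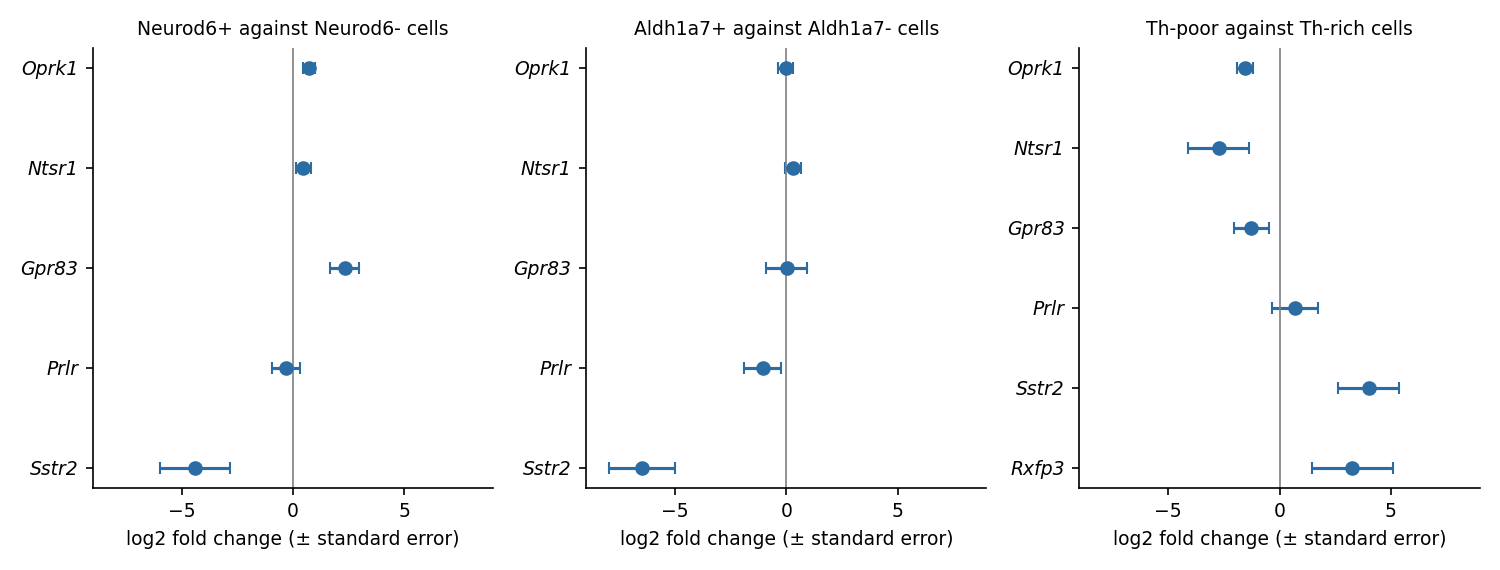
Log2 fold change (edgeR) of each receptor with enough reads to test, for 3 comparisons between classes of cells. The bar is the standard error worked out from the F statistic, and the grey line is 0. *Sstr2* has the most negative value by *Neurod6* and by *Aldh1a7* and a positive value in *Th*-poor cells, and *Gpr83* is at 2.32 by *Neurod6* and 0.02 by *Aldh1a7*.

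Most of the *Th*-poor cells were rich in *Tac1*, the gene of the tachykinin substance P, which was picked after the values had been seen. Of the 23, 15 had 500 CPM or more of *Tac1*, and they came from 6 mice. All 15 were positive for *Slc17a6*, *Slc6a3*, *Slc18a2*, *Ddc* and *Nr4a2*, with 800 CPM of *Slc17a6* and 440 of *Slc6a3*, and 0 of 15 were positive for *En1* or *Gad2*. They held all 8 of the *Th*-poor cells with *Rxfp3*, at 92.1 CPM against 3.64 in the other 194 cells. By mouse this was 87.3, 13.4, 238, 10.3, 65.4 and 0 CPM in mice 1, 2, 4, 5, 6 and 7. Mouse 4 held 4 of the 8 cells, and without it the level of *Rxfp3* was 44.0 CPM against 3.77 in the others, and that of *Sstr2* 44.6 against 7.47. *Sstr2* was positive in 5 of the 15 (65.7 CPM against 7.62), *Prlr* in 7, *Oprk1* in 10, *Oprm1* in 2 and *Ntsr1* in 1. In the 8 *Th*-poor cells that were not rich in *Tac1*, *Sstr2* was positive in 2, at 95.0 CPM. All 12 *Rxfp3*+ cells, whether *Th*-poor or not, were *Slc17a6*+.

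*Prlr* was followed in 1 further set, the 15 cells positive for *Six6*, which was listed as a hypothalamic marker and used to split the cells after the values had been seen. They came from 5 mice, 7 of them from mouse 1. *Prlr* was positive in 14 of the 15 (93.3%), at 348 CPM, and in 56 of the other 194 (28.9%), at 27.2 CPM. By mouse, the *Six6*+ cells had 352 CPM of *Prlr* in mouse 1 (7 cells), 676 in mouse 2 (1 cell) and 557 in mouse 5 (1 cell). They had 280 CPM in mouse 7 (2 cells) and 258 in mouse 8 (4 cells). Of the 7 cells with glial markers at 500 CPM or more, 4 were *Six6*+. In the other 11 *Six6*+ cells *Prlr* was positive in 11, at 409 CPM. *Gpr83* was also high in these cells, in 12 of 15 and at 374 CPM against 112, whereas *Ntsr1* was positive in 4 of 15 (26.7%) against 158 of 194 (81.4%). *Sstr2* had 0 reads in them. Of the 15, 14 were positive for each of *Th*, *Slc6a3*, *Slc18a2* and *Ddc*, as were 184, 191, 191 and 192 of the other 194. The levels of these 4 genes were lower in the *Six6*+ cells, at 2930, 1339, 837 and 760 CPM against 6609, 3196, 1858 and 2139. *En1* was positive in 6 of 15 against 172 of 194, *Nr4a2* in 7 against 190, *Ret* in 6 against 190 and *Pitx3* in 0 against 32. *Gad2* was positive in 12 of 15 against 30 of 194.

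**Figure D5:**
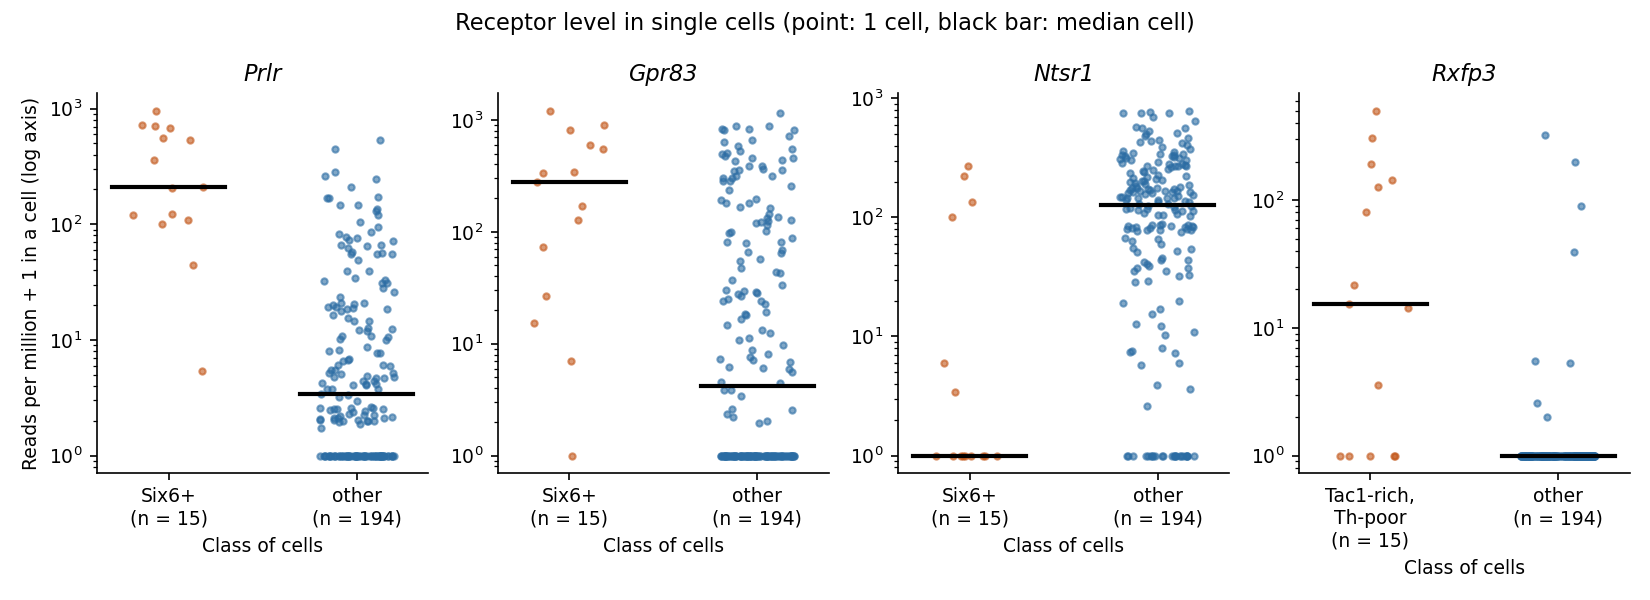
CPM plus 1 in single cells, on a log axis, of *Prlr*, *Gpr83* and *Ntsr1* in *Six6*+ cells (orange, n = 15) against all others (blue, n = 194), and of *Rxfp3* in cells that are *Th*-poor and rich in *Tac1* (orange, n = 15) against all others; the black bar is the median cell. *Prlr* and *Gpr83* are high and *Ntsr1* mostly at 0 reads in *Six6*+ cells, and most cells outside the orange *Rxfp3* group are at 0 reads.

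Between mice labelled male and female, *Ntsr1* did not overlap. It was at 119, 62.1 and 90.4 CPM in the females (mice 1, 4 and 6) and 233, 130, 218, 191 and 123 in the males (mice 2, 3, 5, 7 and 8), with a log2 fold change of 1.01 for male over female (SE 0.28, adjusted p = 0.473, edgeR over 15528 genes). *Rxfp3* did not overlap either, at 17.0 to 86.9 CPM in females and 0 to 8.71 in males (log2 fold change -4.09, SE 1.37, adjusted p = 0.522, edgeR). Mice 1, 4 and 6 also gave 6, 4 and 4 of the 23 *Th*-poor cells, in which *Rxfp3* was found and *Ntsr1* mostly was not. Their part in the difference was not tested. Of 10 receptors, 0 passed in edgeR, beside 0.0322% of all genes tested, with 2 at an unadjusted p under 0.05 (8.12% of all genes) and 0 called by DESeq2 (1.22%). All 3 females were captured on the same C1 machine as males 2 and 7. On that machine *Ntsr1* was at 62.1 to 119 CPM in the females and at 233 and 191 in these 2 males. Female mouse 1 was 25 days old, within the age range of the males, and had 119 CPM of *Ntsr1* beside 123 in the lowest male. The other 2 females, at 33 and 36 days, were older than every male, so age and sex cannot be told apart.

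Across the 209 cells, the genes whose level ran most like each widely detected receptor were found by Spearman's rho of log2(CPM + 1) over 12105 genes. For *Gpr83* they were *Cbln4* (0.62), *Neurod6* (0.55) and *Lpl* (0.55), for *Ntsr1* *Slc10a4* (0.60), *Syt1* (0.56) and *Slc18a2* (0.55), and for *Prlr* *Cadm1* (0.49), *Ahi1* (0.47) and *Sorcs3* (0.47). *Oprk1* ran most like *Th* (0.44), *Cdh13* (0.44) and *Mc3r* (0.42). For *Sstr2*, positive in 20 cells, the highest values were 0.38 for *Zcchc12*, 0.38 for *Il34* and 0.34 for *Fxyd6*. These points share libraries and depth, so the values are descriptions.

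The genes of the ligands were read in the same cells. *Pcsk1n*, whose product holds the *Gpr83* ligand PEN, was positive in 193 of 209 cells and *Grp* in 77. *Pomc* was positive in 36 cells and *Penk*, an enkephalin gene, in 31, whereas *Pdyn*, whose dynorphins act on the κ-opioid receptor, was positive in 0 of 209. *Nmb* was positive in 11 cells, *Rln1* in 14, *Prok2* in 12, *Cort* in 7, *Sst* in 5 and *Nts* in 3, and *Prok1*, *Rln3* and *Prl* in 0. *Penk* was at 291, 247 and 187 CPM in female mice and 1.46 to 58.3 in males, but the value of mouse 4 came from 1 positive cell, and its shares overlapped, at 8.33% to 27.8% of cells in females and 4.44% to 23.5% in males. Apart from *Grp*, which set the classes, none of the 5 to 10 ligand genes tested in a comparison passed in edgeR, where 0.00799% to 0.485% of all genes did. At an unadjusted p under 0.05 there were 0 to 4, the 4 of 10 being by sex, beside 8.12% of all genes there. Among the ligand genes DESeq2 called only *Grp*, in comparisons whose classes it set and also by *Neurod6*, where it called 1.01% of all genes. Over the 7 comparisons DESeq2 called 0.273% to 3.38% of all genes.

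Of 40 other neuropeptide receptor genes, 16 could be tested by *Neurod6* and 0 passed in edgeR, beside 0.0555% of all genes. There were 8 at an unadjusted p under 0.05, beside 6.20% of all genes, and DESeq2, which called 1.01% of all genes, called 5 (*Tacr3*, *Hcrtr2*, *Crhr1*, *Mc3r* and *Trhr*). By *Aldh1a7* 17 could be tested and 1 passed in edgeR, beside 0.407% of all genes. *Calcrl*, a partner of the calcitonin gene-related peptide receptor, fell by 3.11 on the log2 scale in *Aldh1a7*+ cells (SE 0.63, adjusted p = 0.0406, edgeR), and with the mouse as block it did not pass (adjusted p = 0.0695). The median of the 17 was -0.67, against 0.00 over all genes. Among 24 genes of G proteins and their effectors, *Plcb4*, a phospholipase C activated through Gq, was higher in *Aldh1a7*+ cells (log2 fold change 0.94, SE 0.18, adjusted p = 0.0300, edgeR) and lower in *Th*-poor cells (log2 fold change -2.15, SE 0.37, adjusted p = 0.0288, edgeR). With the mouse as block neither passed (adjusted p = 0.0695 and 0.114). Those were 1 of 20 and 1 of 18 members tested, beside 0.407% and 0.485% of all genes, with list medians of -0.24 and -0.01 against 0.00 and 0.11 over all genes. None of the 12 genes of prolactin receptor signalling passed in any of the 7 comparisons in edgeR, where 8 or 9 could be tested. The share of all genes that passed was 0.00799% to 0.485%. At an unadjusted p under 0.05 there were 0 to 3 of them, the 3 of 9 being by *Aldh1a7*, beside 11.0% of all genes. DESeq2 called 1, *Stat3*, in the *Th*-poor cells, beside 3.38% of all genes.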

How the data were processed

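The deposited counts are whole reads per gene and cell, not normalized. Per the methods and the submitters' processing notes, the authors demultiplexed with bcl2fastq 2.17 (CASAVA and Cufflinks are also listed), trimmed with Trimmomatic 0.3.2, aligned with TopHat2 2.1.1 to GRCm38 and counted RefSeq genes with featureCounts 1.5.0-p3, leaving out reads on more than 1 gene. The other deposited tables were not used here. All count columns matched a labelled cell. Rows without values (5721) stayed out, and 0.00457% of reads fell on entries that are not genes.

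Cells with at least 500000 reads were kept, which are 209 of 384; 175 shallower cells were left out. The study's limits on alignment rate and dropout were not applied. Mice with 3 or more cells in both classes entered a comparison, with the reads of a class summed per mouse. The test was that of edgeR 4.0.16, run in R 4.3.3 (TMM, filterByExpr, quasi-likelihood, two-sided, Benjamini-Hochberg over all genes tested, threshold 0.05). DESeq2 1.42.0 was the other tool. Python 3.11.15, numpy 2.4.6, pandas 2.3.3, scipy 1.17.1 and matplotlib 3.10.9 were used for the rest. The fits were tested on simulated data. A pseudocount of 1 was used only for correlations and log axes. P-values of the main fits measure the spread between mice within a class or sex. The spread of the differences within a mouse enters only the fits with the mouse as block.

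Both classes come from the same mice, so the pairing is in the design; after class means were removed, the classes of a mouse correlated at 0.019–0.321 across genes. The fit without the mouse as block was the main one. No block is stated in the study's methods, nor are sums per mouse, which were used here because cells of a mouse share their source.

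Named were the 10 receptors, the genes that set or check the classes, their ligands, members of the lists that passed, and the 3 genes most like each receptor positive in at least 20 cells. Receptors, lists and classes were chosen with earlier results of these data known. Sex and age follow the sample labels; the series' design text differs from them. The values of 1 further marker gene are not reported here.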

Additional observations from a re-analysis of the deposited data

Results flagged for a closer look

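Values that stood apart from the other mice of their group were looked for in 82 groups of mice, and 21 were found. The limit used gives about 1 in 20 groups by chance only where values are normally distributed. Here the values were CPM or shares of cells, and all 21 were the highest of their group. That rate therefore need not hold, and no excess over chance is read from the 21. Several of these 21 values concern the same mice. None was explained here.

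In mouse 4, over all its cells, *Rxfp3* was at 86.9 CPM and in 33.3% of cells (next mouse 33.3 CPM and 11.1%), and *Prokr2* at 15.2 CPM and in 8.33% of cells (next 1.85 CPM and 2.94%). Mouse 4 gave 12 retained cells, so 1 cell decides much of its *Prokr2*. Its *Th*-poor cells had 238 CPM of *Rxfp3* (next mouse 65.4), while mouse 1 had 33.5 CPM of *Rxfp3* in *Th*-rich cells (next 3.66).

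*Oprk1* in mouse 7 was at 400.2 CPM in *Neurod6*- cells (next 193) and at 482 in *Grp*- and in *Grp*-/*Neurod6*- cells (next 210 and 199). *Ntsr1* in mouse 2 was at 334 CPM in *Neurod6*+ cells (next 202), 337 in *Grp*+/*Neurod6*+ cells (next 191) and 100.1 in *Th*-poor cells (next 11.1). In mouse 5, *Ntsr1* was at 308 CPM in *Grp*+/*Neurod6*- cells in both comparisons that use them (next 143).

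*Sstr2* was at 37.7 CPM in *Neurod6*- cells (next 14.0) and 32.5 in *Grp*+ cells (next 10.9) of mouse 2, and at 52.4 in *Grp*- cells of mouse 6 (next 19.8). *Grpr* in mouse 8 was at 18.6 CPM in *Grp*- cells (next 3.44). *Prlr* was at 107 CPM in *Aldh1a7*+ cells of mouse 8 (next 20.8), 289 in *Th*-poor cells of mouse 5 (next 75.3) and 202 in *Th*-rich cells of mouse 1 (next 39.8), the mouse with 7 of the 15 *Six6*+ cells.

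The 175 cells below 500000 reads were in no comparison, and receptors were counted in them too. *Oprk1* was positive in 58 (33.1%), *Ntsr1* in 55 (31.4%), *Prlr* in 17 (9.71%) and *Gpr83* in 16 (9.14%), where a count of 0 would allow 1.71% (3 of 175 cells), a limit that any gene in more than 3 cells passes. Their shares lie below those of the retained cells, and depth differs between the sets.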

How the results depend on the processing

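The number of receptors that passed was 0 in all 7 comparisons in edgeR, and 116 of 121 recomputed numbers were also 0. The other 5 were 1 by *Neurod6*, 1 by *Aldh1a7* and 2 by *Th* with DESeq2, 1 by *Th* with the limit at 2000 CPM, and 1 by *Aldh1a7* without mouse 3, so that leaving out a mouse in turn gave 0–1 there and 0–0 elsewhere. Of 41 fitted log2 fold changes, the 23 beyond 1 standard error were followed, and 362 of their 373 recomputed values kept direction and side of the threshold. Past it came *Gpr83* by *Neurod6*, *Sstr2* by *Aldh1a7*, and *Oprk1* and *Sstr2* by *Th* with DESeq2, *Sstr2* without mouse 3 and *Oprk1* at the *Th* limit of 2000 CPM. The sign turned for *Prlr* by *Grp* without *Six6*+ cells (0.18), for *Oprk1* in *Grp*+/*Neurod6*- cells with at least 750000 reads (0.030) and with classes set from 50 reads (0.061), for *Ntsr1* between *Grp*+/*Neurod6*+ and *Grp*+/*Neurod6*- cells from 50 reads (-0.019), and for *Prokr2* by sex without mouse 4 (6.47, against -3.39 with all mice and down to -3.97 without mouse 6); the cause was not tested. Of 140 recomputed shares, 138 moved by less than the SD of the share between mice and 2 by more: *Oprk1* from 50 reads to 73.2% and *Prlr* from 1 read to 68.9%.

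With the mouse as a replicate block, 0 receptors passed in any of the 6 comparisons between classes, and the lowest adjusted p were 0.057 for *Sstr2* by *Aldh1a7*, 0.0766 for *Sstr2* by *Th* and 0.166 for *Gpr83* by *Neurod6* (log2 fold change 2.79); the block changed the call of none of these 10 receptors, but *Calcrl* and *Plcb4* by *Aldh1a7* (both 0.0695) and *Plcb4* by *Th* (0.114) no longer passed with it. Over all genes, the passing genes went from 7 to 1 by *Neurod6*, 52 to 29 by *Aldh1a7*, 54 to 11 by *Th*, 1 to 2 for *Grp*+/*Neurod6*- cells and 1 to 0 within *Grp*+ cells. DESeq2 passed 127, 51, 36, 30, 338, 376 and 190 genes where edgeR passed 7, 1, 1, 1, 52, 54 and 5, by *Neurod6*, *Grp*, the *Grp*+/*Neurod6*- cells, within *Grp*+ cells, *Aldh1a7*, *Th* and sex. With size factors of the DESeq2 type in edgeR, 3 genes were higher and 1 lower by *Neurod6*, against 3 and 4.

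For *Th*, the alternatives with at least 750000 reads per cell and with at least 5 cells per class were not run, since 1 mouse was left. The small classes, 3 to 6 *Th*-poor cells per mouse, and the few reads of *Grpr*, *Rxfp3*, *Oprm1*, *Ntsr2* and *Prokr2* limit what is detectable. Leaving out cells with glial markers or with *Six6*, and mouse 4 from the *Tac1*-rich cells, were chosen after the data were seen.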
